A study of Rattus norvegicus with 24 samples.

Results

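Genes of the fast-fibre sarcomere, the contractile unit of fast-twitch muscle, were examined in the medial gastrocnemius of 24 rats. The members were chosen by gene symbol from a list of 10 (Tnnc2, Tnni2, Tnnt3, Mylpf, Myl1, Myh1, Myh2, Myh4, Actn3 and Tpm1), and the rule used no measured value. Of these, 8 were found by symbol among the 10851 genes with deposited counts, and Mylpf and Myh1 were not analysed here under their own symbols. RefSeq gives Mylpf as another name of Myl11, whose values are given apart from the members. RefSeq also gives Myh1 as another name of Myh2 beside an entry of its own, so whether the values labelled Myh2 hold reads of both genes was not tested.

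The rats were male Wistar rats in 4 groups of 6, and every rat gave 1 library from the left leg. Their age is not given in the sources used here. Sed rats received saline and stayed sedentary, and Ex rats received saline and trained on a treadmill. CC-Sed and CC-Ex rats received a single injection of monocrotaline, a plant alkaloid that injures lung vessels and leads to failure of the right heart and muscle loss (cardiac cachexia, CC), and stayed sedentary or trained, respectively. Only rats that survived and showed enlargement of the right ventricle were kept in the CC groups, which limits these groups to such animals.

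In a sarcomere, myosin heavy chains pull on actin filaments, and each heavy chain carries an essential and a regulatory light chain. Tropomyosin covers the myosin sites on actin until calcium binds troponin C, and troponins I and T pass this signal on. Fast and slow fibres build these parts from separate genes, and rodent gastrocnemius is known as a mostly fast muscle in which type IIB fibres, marked by the heavy chain gene Myh4, predominate.

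No member passed the test between any groups, although the levels of 7 of the 8 were lower on average in CC-Sed than in Sed. In 3 of the 6 CC-Sed rats (replicates 1, 5 and 6), each of the 7 members other than Myh2 lay below its lowest Sed rat. CC-Sed replicates 2 and 3 lay within or above the Sed range for all 7. Together the 8 members held a median of 16.1% of all counts in Sed and 10.2% in CC-Sed, beside 15.8% in Ex and 16.1% in CC-Ex. The rats of all groups overlapped for every member.

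Levels are counts per 1000000 (CPM) after TMM scaling of the library size, and compare rats for the same gene. No transcript lengths were used, so levels are not compared between genes. The library totals ran from 37816239 to 50350554. Libraries of the same group differed by at least 43.8 in chi-square per degree of freedom. Within a group, none was thus a repeat of another, and pairs across groups were not compared. Fold changes are log2 differences between groups from the quasi-likelihood test of edgeR on all 24 rats. A gene was called at a Benjamini-Hochberg adjusted p under 0.05 over 10851 genes. Markers of muscle fibres such as Acta1, Ckm and Ttn were present for 7 of 7, with summed levels of 73937 to 96711 CPM in Sed and 67488 to 97698 CPM in CC-Sed. In whole muscle, fewer fibres of a type and less RNA per fibre cannot be told apart.

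Tnnc2 encodes fast troponin C, which binds calcium. Its levels in Sed had a lowest value of 6406 CPM, a median of 7779 CPM and a highest value of 8781 CPM. The CC-Sed levels were 4185 CPM at the lowest, 5543 CPM at the median and 8012 CPM at the highest, with 3 of 6 rats below every Sed rat. In Ex, Tnnc2 ranged from 5485 to 8515 CPM around a median of 7606 CPM. In CC-Ex the median was 5972 CPM and the range, 4581 to 9699 CPM, reached past Ex at both ends. The Tnnc2 log2 fold change was -0.41 for CC-Sed against Sed (95% confidence interval -0.83 to 0.01, edgeR adjusted p = 0.185) and -0.13 for CC-Ex against Ex (-0.54 to 0.29, edgeR adjusted p = 0.713).

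Tnni2 encodes fast troponin I, the inhibitory subunit. The 6 Sed rats lay between 5247 and 7453 CPM with a median of 6750 CPM, and the 6 CC-Sed rats between 3139 and 6305 CPM with a median of 4818 CPM. The CC-Sed rats fell on both sides of the lowest Sed rat, 3 below and 3 above. Ex rats had 4910, 6418 and 6807 CPM as lowest, median and highest level, against 3643, 4761 and 7674 CPM in CC-Ex. For Tnni2 the log2 fold change was -0.45 in the sedentary comparison (-0.89 to -0.0034, edgeR adjusted p = 0.173) and -0.19 in the trained comparison (-0.63 to 0.25, edgeR adjusted p = 0.587).

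Tnnt3 encodes fast troponin T, which ties the troponin complex to tropomyosin. In Sed its lowest level was 12539 CPM, its median 15197 CPM and its highest 17217 CPM. In CC-Sed these were 7893, 10794 and 18179 CPM, so that 4 rats were below all Sed rats and 1 was above them. Trained rats were closer, at 10477, 15087 and 17984 CPM in Ex and 10058, 14204 and 20248 CPM in CC-Ex. The Tnnt3 log2 fold changes were -0.32 (-0.74 to 0.11, edgeR adjusted p = 0.312) for CC-Sed against Sed and -0.03 (-0.46 to 0.40, edgeR adjusted p = 0.940) for CC-Ex against Ex. The second of these turned positive in 3 of 12 fits that each left out 1 rat, up to 0.05 without CC-Ex replicate 3.

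Myl1 encodes the fast essential light chain of myosin. Its Sed levels were 8654 CPM at the lowest, 11499 CPM at the median and 13209 CPM at the highest, and its CC-Sed levels were 5036, 7344 and 10835 CPM. Replicates 1, 5 and 6 of CC-Sed, at 5262, 5730 and 5036 CPM, were below the lowest Sed rat. In Ex the lowest, median and highest Myl1 levels were 8489, 11693 and 13835 CPM, and in CC-Ex 5824, 8373 and 14968 CPM. CC-Ex replicates 2, 3 and 5 were below the lowest Ex rat, and replicate 4 was above the highest. Myl1 came nearest to a call, with a log2 fold change of -0.56 for CC-Sed against Sed (-1.06 to -0.06, edgeR adjusted p = 0.135) and of -0.43 for the mean monocrotaline effect over sedentary and trained rats (-0.78 to -0.08, edgeR adjusted p = 0.0607). The mean effect on Myl1 was called with DESeq2, with upper-quartile scaling, with a filter of at least 10 CPM on average and with limma-voom. It was also called in 4 of 24 fits that left out 1 rat, which were those without CC-Sed replicate 2 or 3 or CC-Ex replicate 4 or 6. For CC-Ex against Ex alone the Myl1 log2 fold change was -0.30 (-0.79 to 0.20, edgeR adjusted p = 0.444).

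Myl11, the regulatory light chain gene for which RefSeq lists the name Mylpf, showed levels of 6998, 11248 and 12569 CPM (lowest, median and highest) in Sed and 3947, 6577 and 10021 CPM in CC-Sed. In trained rats they were 7800, 11638 and 12511 CPM in Ex and 5597, 7056 and 13900 CPM in CC-Ex. The Myl11 log2 fold change was -0.63 for CC-Sed against Sed (-1.18 to -0.08, edgeR adjusted p = 0.129), and -0.49 for the mean monocrotaline effect (-0.88 to -0.11, edgeR adjusted p = 0.0522). The mean effect on Myl11 was called in 4 of 8 other settings of the model and in 7 of 24 fits that left out 1 rat.

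Myh4 encodes the heavy chain of type IIB fibres, the fastest of the rat. Its promoter window is shown because Myh4 held most of the counts of the members in the typical rat, and the window of Myh2 because these neighbouring heavy chain genes moved in opposite directions between rats. The RefSeq windows run from 250 bases before to 50 bases after the start of the gene, on the plus strand of the GRCr8 assembly, which is not the assembly used for the counts. Capitals mark E-boxes, written CANNTG, and matches to the MEF2 and CArG motifs, together with TATA boxes (the letters TATAAA), on either strand.
Myh4, chr10:52421898-52422197: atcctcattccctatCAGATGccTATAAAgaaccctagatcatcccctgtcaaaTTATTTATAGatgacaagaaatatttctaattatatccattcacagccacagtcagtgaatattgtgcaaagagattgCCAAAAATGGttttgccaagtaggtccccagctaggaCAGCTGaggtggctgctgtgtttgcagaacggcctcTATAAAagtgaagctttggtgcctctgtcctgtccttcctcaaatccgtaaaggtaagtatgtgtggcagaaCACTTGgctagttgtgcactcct
Myh2, chr10:52355489-52355788: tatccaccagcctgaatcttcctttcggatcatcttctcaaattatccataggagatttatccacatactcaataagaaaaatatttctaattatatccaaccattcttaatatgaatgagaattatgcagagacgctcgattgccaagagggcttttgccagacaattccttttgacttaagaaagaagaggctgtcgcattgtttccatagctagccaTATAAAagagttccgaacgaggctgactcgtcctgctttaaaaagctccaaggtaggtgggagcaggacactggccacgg

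The Myh4 window held 3 E-boxes, 1 MEF2 match, 1 CArG match and 3 TATAAA matches, of which 1 lay within the MEF2 match on the other strand. The TATAAA nearest to the start began at -45 in Myh4 and at -30 in Myh2, whose window held no other of these motifs. Windows were found for 7 of the 8 members (8 windows, with a pair for Myl1). An E-box was present in 5 members and in 72.1% of all 33469 rat windows, TATAAA in 4 members and 14.2%, MEF2 in 2 members and 3.29%, and CArG in 1 member and 1.64%. These matches describe the letters and are no evidence of binding.

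Myh4 levels in Sed ran from 64625 CPM over a median of 87157 CPM to 118121 CPM. In CC-Sed the lowest was 42052 CPM, the median 54927 CPM and the highest 119919 CPM. The CC-Sed rats parted widely, with replicates 1, 4, 5 and 6 at 54419, 55436, 45438 and 42052 CPM, below all Sed rats, and replicates 2 and 3 at 110877 and 119919 CPM. Ex rats had 46679, 88618 and 115705 CPM as lowest, median and highest Myh4 level and CC-Ex rats 69895, 92472 and 130291 CPM, with no CC-Ex rat below the lowest Ex rat. The Myh4 log2 fold change was -0.31 for CC-Sed against Sed (-0.88 to 0.26, edgeR adjusted p = 0.472) and 0.13 for CC-Ex against Ex (-0.43 to 0.70, edgeR adjusted p = 0.777). The former was -0.52 without CC-Sed replicate 3. The latter was 0.0081 without Ex replicate 4, and turned to -0.08 with the library number as a covariate and to -0.03 in limma-voom.

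Myh2 encodes the heavy chain of type IIA fibres, which are fast but more oxidative. The near identity of heavy chain genes makes the split of reads between them by Salmon uncertain, and its values are to be read with that limit. Myh2 spread far more between rats than the other members. Its levels were 1077, 4407 and 6598 CPM (lowest, median, highest) in Sed and 487.6, 3833 and 14612 CPM in CC-Sed. In trained rats they were 1189, 4233 and 10381 CPM for Ex and 361.5, 4135 and 7064 CPM for CC-Ex. The 4 medians were thus alike while the highest CC-Sed rat exceeded the lowest 30.0-fold. Within groups the SD of the Myh2 log2 level was 1.16 for Sed and 1.14 for Ex, against 1.87 for CC-Sed and 1.74 for CC-Ex. The log2 fold change of Myh2 was 0.55 for CC-Sed against Sed (-0.96 to 2.07, edgeR adjusted p = 0.635) and -0.54 for CC-Ex against Ex (-2.05 to 0.97, edgeR adjusted p = 0.657). Single rats carried much of both Myh2 values, which were 0.05 without CC-Sed replicate 4 and -0.23 without Ex replicate 4.

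The balance of the pair was read as Myh2 in percent of the summed Myh2 and Myh4 counts. Its medians were 4.74% (Sed) and 5.4% (CC-Sed) in sedentary and 4.32% (Ex) and 4.64% (CC-Ex) in trained rats, and it ran from 0.322% in CC-Ex replicate 5 to 20.9% in CC-Sed replicate 4. CC-Sed rats held both low and high values, from 0.438% to 20.9%, whereas Sed rats stayed between 1.16% and 9.26%. CC-Sed replicate 1 was low in both genes, with 1285 CPM of Myh2 and 54419 CPM of Myh4, so a low level of Myh4 did not always go with a high level of Myh2.

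Actn3 encodes the alpha-actinin that cross-links actin at the Z-disc of fast fibres. Its lowest, median and highest levels were 8517, 10691 and 13667 CPM in Sed and 3014, 4143 and 18280 CPM in CC-Sed. The CC-Sed rats spanned 6.07-fold for Actn3, more than the other groups, with 4 rats at 3014 to 4761 CPM and replicate 2 above every Sed rat. In Ex, Actn3 had 3563, 10812 and 15971 CPM, and in CC-Ex 7292, 9162 and 18838 CPM. Ex replicate 4, at 3563 CPM, was below every other rat outside CC-Sed, the next being CC-Ex replicate 3 at 7292 CPM. The Actn3 log2 fold change was -0.50 for CC-Sed against Sed (-1.36 to 0.35, edgeR adjusted p = 0.432) and 0.11 for CC-Ex against Ex (-0.75 to 0.96, edgeR adjusted p = 0.887). Without CC-Sed replicate 2 the sedentary value of Actn3 was -0.99, and without CC-Sed replicate 1 it was -0.36. The sign of the trained comparison was not stable, at -0.14 with the library number as a covariate and down to -0.11 without CC-Ex replicate 6.

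Tpm1 encodes alpha-tropomyosin, the main tropomyosin of fast fibres and of the heart. Sed rats had 10968, 16653 and 18504 CPM as lowest, median and highest level, and CC-Sed rats 5319, 8274 and 17937 CPM. In CC-Sed 4 of 6 rats were below the lowest Sed rat and none was above the highest. In Ex the Tpm1 levels were 8562, 16342 and 21112 CPM, against 7440, 11197 and 23842 CPM in CC-Ex. The log2 fold change of Tpm1 was -0.65 for CC-Sed against Sed (-1.30 to -0.0020, edgeR adjusted p = 0.175), the most negative of the members, and -0.25 for CC-Ex against Ex (-0.90 to 0.39, edgeR adjusted p = 0.623).

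**Figure D1:**
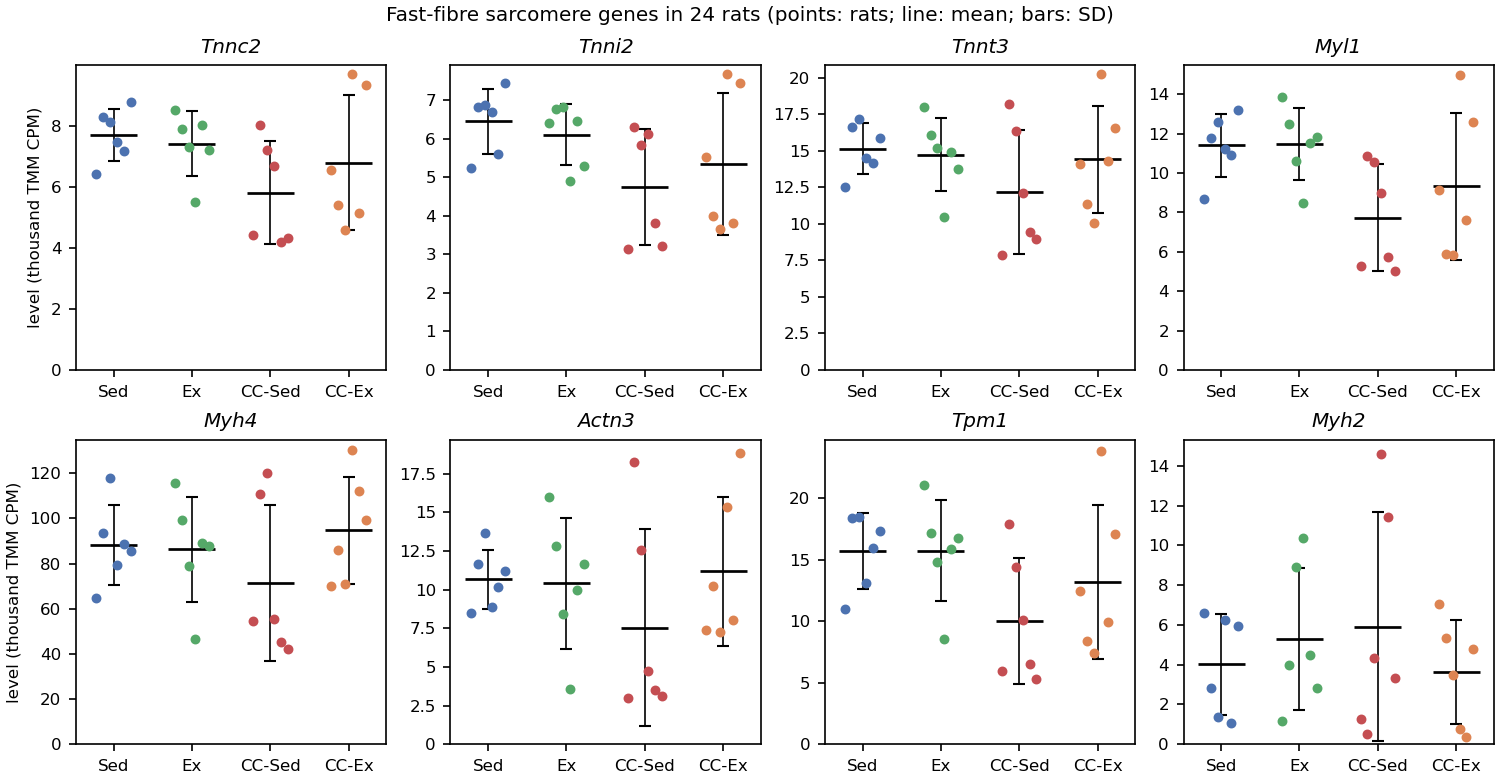
Levels of the 8 fast-fibre sarcomere genes in each rat, in CPM after TMM scaling (vertical axis, in units of 1000), by group (horizontal axis, 6 rats each), with points for rats, lines for group means and bars for SD. The CC-Sed rats lie in a lower and an upper set of points for Myh4 and Actn3, and Myh2 spreads widely in every group.

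Across the 8 members, the sedentary comparison had a median log2 fold change of -0.43, against 0.02 over all 10851 genes. None of the 8 was called in it, where 6.46% of all genes were. Before adjustment, 3 of 8 had a p under 0.05 (Tnni2, Myl1 and Tpm1), beside 28.4% of all genes. DESeq2 and limma-voom called none of the 8 in this comparison either.

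In the trained comparison the median over members was -0.16, against 0.01 over all genes. edgeR, DESeq2 and limma-voom each called 0 of 8 members, edgeR called 0.995% of all genes, and 0 of 8 members had an unadjusted edgeR p under 0.05, beside 22.6% of all genes. Without CC-Ex replicate 4 the log2 fold changes were -0.26 for Tnnc2, -0.32 for Tnni2, -0.48 for Myl1 and -0.51 for Tpm1. Without CC-Ex replicate 3 they were -0.04, -0.10, -0.19 and -0.13, respectively.

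For the mean monocrotaline effect over both activity levels, 0 of 8 members were called by edgeR, against 27.8% of all genes, and 2 of 8 (Tnni2 and Myl1) had an unadjusted p under 0.05, against 42.4% of all genes. The median of the members was -0.23, that of all genes 0.01. DESeq2 called 1 member (Myl1), beside 32.1% of all genes, and limma-voom 4 (Tnnc2, Tnni2, Myl1 and Tpm1), beside 36.4%. Upper-quartile scaling and the 10 CPM filter each called Myl1 alone, beside 27% and 34.3% of the genes tested. In the fits that left out 1 rat, the number called was 0 to 3, reaching 3 (Tnni2, Myl1 and Tpm1) without CC-Ex replicate 4, where 33.9% of all genes were called, and 2 (Myl1 and Tpm1) without CC-Sed replicate 2, where 30.6% were. Myl1 alone was called without CC-Sed replicate 3 or CC-Ex replicate 6, beside 24% and 25% of all genes.

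Between Sed and Ex, the log2 fold changes of the 7 members other than Myh2 lay between -0.08 (Tnni2) and 0.01 (Myl1), and Myh2 had 0.39 (-1.11 to 1.90). The intervals of the others still allowed larger changes, such as -0.60 to 0.53 for Myh4 and -0.89 to 0.82 for Actn3. edgeR, DESeq2 and limma-voom called 0 of 8 members in this comparison, and no member had an unadjusted edgeR p under 0.05. Of all genes 0% were called, and 1.09% had an unadjusted p under 0.05.

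Between CC-Sed and CC-Ex, 7 members had higher average levels in CC-Ex, and none was called. The largest log2 fold changes were 0.57 for Actn3 (-0.29 to 1.43) and 0.41 for Myh4 (-0.16 to 0.98), and Myh2 had -0.70 (-2.22 to 0.81), with an edgeR adjusted p of 1.00 for each of the 3. The Myh2 value was -0.20 without CC-Sed replicate 4 and 0.18, of the other sign, in limma-voom. The Actn3 and Myh4 values were 1.06 and 0.62 without CC-Sed replicate 2 and 3, respectively. They were 0.36 and 0.30 without CC-Ex replicate 6 and 4, respectively. The call rate over all genes was again 0%, with 2.16% at an unadjusted p under 0.05 and 0 of 8 members among them. DESeq2 and limma-voom also called 0 of 8.

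The mean training effect over saline and monocrotaline rats gave 0 of 8 calls, beside 0% of all genes (1.75% unadjusted, with 0 of 8 members). The interaction, which asks whether the monocrotaline effect differed between trained and sedentary rats, gave 0 of 8 calls and 0% of all genes (1.42% unadjusted, with 0 of 8 members). Its log2 estimates were positive for 7 members, from 0.25 (Tnni2) to 0.61 (Actn3, -0.60 to 1.82), and -1.10 for Myh2 (-3.23 to 1.04). DESeq2 and limma-voom called 0 of 8 members in both. A difference between the sedentary and the trained effect was therefore not detectable for any member with 6 rats a group. The pairwise comparisons share groups, so their values are not independent of each other.

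**Figure D2:**
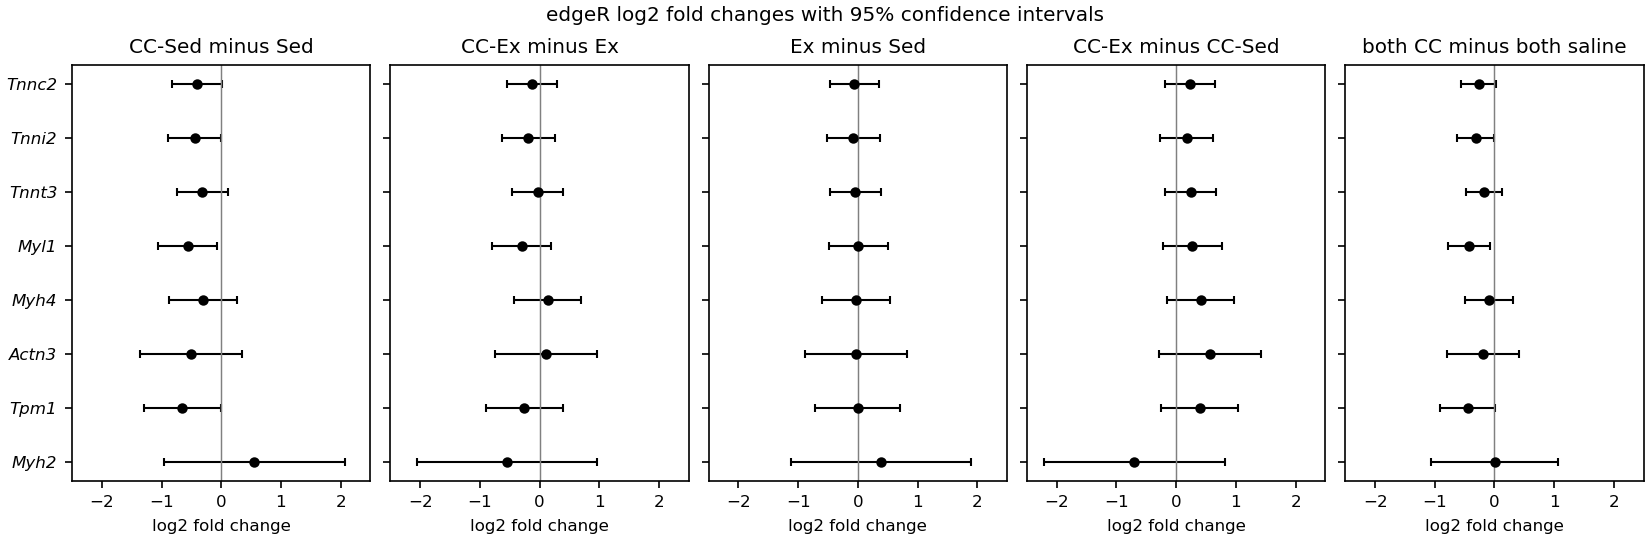
edgeR log2 fold changes of the 8 members (horizontal axis) with 95% confidence intervals, for 4 pairwise comparisons and for the mean monocrotaline effect. In the sedentary comparison the points of 7 members lie left of zero, and for Myl1, Tnni2 and Tpm1 the interval ends at or below zero, while none passed the adjusted threshold.

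The share of all counts taken by the members was described without a test, since it is a sum over chosen genes. It lay between 12.9% and 18.4% in Sed and between 8.41% and 18.7% in CC-Sed. Trained rats held 9.61% to 20.5% (Ex) and 12.9% to 20.3% (CC-Ex). The mean of CC-Sed, 12.5% ± 4.71 (SD, n = 6), lay below that of Sed, 15.7% ± 2.15 (SD, n = 6). The difference, -3.23 percentage points, was smaller than the SD of CC-Sed. In CC-Sed, replicates 1, 4, 5 and 6 had 9.81%, 10.6%, 9.13% and 8.41%, below every Sed rat, while replicates 2 and 3 had 18.7% and 18.3%. The mean of CC-Ex was 15.9% ± 2.78 (SD, n = 6), beside 15.5% ± 3.62 (SD, n = 6) in Ex, a difference of 0.454 percentage points that became -0.721 without Ex replicate 4 and -0.625 when Myh4 was left out of the sum.

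Myh4 was the gene with the highest count in 20 of the 24 rats and the runner-up in the other 4 (Ex replicate 4 and CC-Sed replicates 4, 5 and 6). Alone it took a median of 8.63% of all counts in Sed and 5.6% in CC-Sed, and of 8.79% (Ex) and 9.35% (CC-Ex) in trained rats. Its part of the members' own counts ranged from 46.7% in CC-Sed replicate 4 to 69.5% in CC-Ex replicate 5. Without Myh4, the members held a median of 7.31% in Sed and 5.09% in CC-Sed, and of 7.01% (Ex) and 5.89% (CC-Ex). Counts of a gene also rise with its length, so these parts do not rank the genes by molecules.

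**Figure D3:**
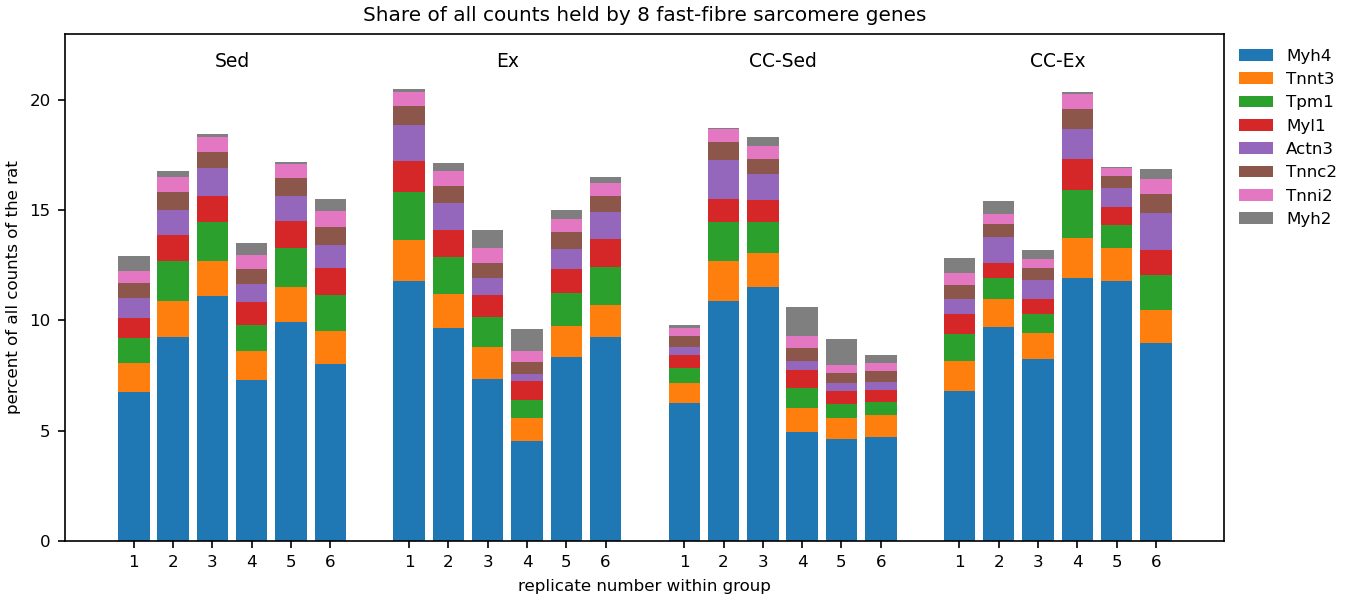
Percent of all counts of each rat (vertical axis) held by each of the 8 members, stacked, by replicate number within group (horizontal axis). The CC-Sed bars of replicates 1, 4, 5 and 6 reach 8.41% to 10.6% and those of replicates 2 and 3 reach 18.7% and 18.3%.

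The same rats were low or high for most members. CC-Sed replicates 1, 5 and 6 were below the lowest Sed rat for 7 of the 7 members other than Myh2, and replicate 4 for 4 of 7. Among CC-Ex rats, replicate 3 was below the lowest Ex rat for 5 of 7, replicate 2 for 4 and replicate 5 for 3, whereas replicate 4 was above the highest Ex rat for 6 of 7 and replicate 6 for 3. These counts depend on the scaling of the libraries. With CPM of the plain library size, 4 instead of 3 CC-Sed rats were below all Sed rats for Tnnc2, Tnni2 and Myl1. For CC-Ex on that scale the number fell from 3 to 1 for Tnnc2, from 1 to 0 for Tnnt3 and from 2 to 0 for Tpm1.

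The SD of the log2 level was larger in CC-Sed than in Sed for 8 of 8 members, and larger in CC-Ex than in Ex for 6 of 8, all but Myh4 and Actn3. In Sed the SD of the log2 level of the 7 members other than Myh2 was 0.16 (Tnnc2) to 0.30 (Tpm1), and in CC-Sed it was 0.42 (Tnnc2) to 1.12 (Actn3). In Ex it was 0.20 (Tnni2) to 0.76 (Actn3) and in CC-Ex 0.36 (Myh4 and Tnnt3) to 0.64 (Tpm1). A larger SD was not confined to the members. Among the markers of muscle fibres, it was larger in CC-Sed than in Sed for Acta1, Ckm, Mb, Ryr1 and Cacna1s, and smaller for Ttn and Neb. The difference in spread was not tested, and its share over all genes was not computed.

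Members were then compared over the 24 rats after subtracting the group means from the log2 levels, so that differences between group means play no part. Differences in spread remain, and groups with a larger spread weigh more in the pooled values. Over the 21 pairs of members other than Myh2, Pearson's r lay between 0.603 and 0.965 with a median of 0.886, and Spearman's rho between 0.578 and 0.953. Of 36 pairs computed, with p-values from 100000 permutations within groups, the largest Benjamini-Hochberg adjusted p of these 21 was 0.0111 for r and 0.0179 for rho. Leaving out the 2 rats farthest from the median of a pair's second gene gave r of 0.561 to 0.957. The tightest pairs were Tnnc2 with Myl1 and Myl1 with Tpm1 (r = 0.965 each, permutation p = 1e-05, adjusted 2.77e-05, the smallest that these permutations can give), and the loosest was Tnni2 with Myh4. All values of a rat come from the same library, and each is a part of the same total.

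Myh2 went its own way. Its r with the other 7 members ranged from -0.614 with Myh4 to 0.0138 with Tnni2. For Myh2 with Myh4, rho was -0.677 and the permutation p 0.00593 for r and 0.00178 for rho (adjusted 0.0089 and 0.00279), r was -0.708 without the 2 farthest rats, and r within single groups was -0.713 in Sed rats, -0.816 in Ex rats, -0.465 in CC-Sed rats and -0.771 in CC-Ex rats. With none of the other 6 members was the relation of Myh2 past an adjusted permutation p of 0.05, the smallest adjusted value being 0.0875 for rho with Actn3.

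**Figure D4:**
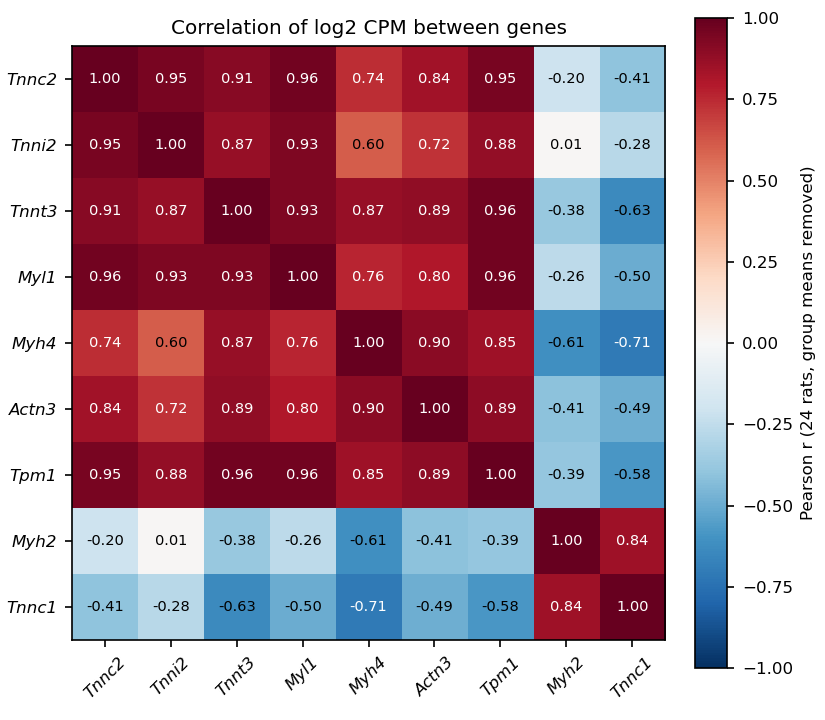
Pearson's r of log2 CPM between members and Tnnc1, slow troponin C, over 24 rats after group means were removed (colour and number in each cell). The block of 7 members other than Myh2 ranges from 0.603 to 0.965, and Myh2 is positive with Tnnc1 (0.844).

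The slow partners of the members, from a list of 11 slow-fibre sarcomere genes of which 7 were measured (Tnnt1, Myl2, Myh7 and Myl6b were not analysed here), showed higher average levels in CC-Sed than in Sed for 7 of 7 (median log2 fold change 1.64). edgeR called none, beside 6.46% of all genes. With DESeq2, the authors reported Tnnc1, Tpm3, Tnni1 and Myl3 among the most upregulated genes of this comparison, at larger log2 fold changes. The slow genes were not followed in the DESeq2 and limma-voom fits here. Tnnc1, which replaces Tnnc2 in slow fibres, had 6.62, 138.3 and 311.3 CPM (lowest, median, highest) in Sed and 9.32, 712.7 and 1111 CPM in CC-Sed, with a log2 fold change of 2.01 (-0.72 to 4.74, edgeR adjusted p = 0.318). The other slow partners had log2 fold changes of 1.64 (Tnni1, slow troponin I, -0.94 to 4.21), 1.70 (Myl3, a slow essential light chain, -0.65 to 4.04), 1.97 (Tpm3, slow tropomyosin, -0.36 to 4.31) and 0.50 (Actn2, the other alpha-actinin of muscle, -0.21 to 1.2). In the trained comparison Tnnc1 had 0.39 (-2.25 to 3.02), and 4 of 7 slow genes were positive.

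The slow genes also varied widely between the rats of a group. For Tnnc1, Tnni1, Myl3 and Myoz2, 4 of 6 CC-Sed rats lay above every Sed rat and none lay below. Tnnc1 was at 926.9, 871.6, 1111 and 553.8 CPM in CC-Sed replicates 1, 4, 5 and 6, but at 9.32 and 112.4 CPM in replicates 2 and 3, the 2 rats in which Myh4 was high. CC-Ex replicates 4 and 5 had only 0.504 and 0.375 CPM of Tnnc1, beside 130291 and 112041 CPM of Myh4, the highest Myh4 levels of that group. These Tnnc1 levels lie near the lower limit of the deposited counts, none of which was below 10. The summed slow list took 0.089% to 1.22% of all counts over the 24 rats.

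With group means removed, Myh4 and Tnnc1 had r = -0.708 and rho = -0.739 (permutation p = 3e-05 and 1e-05, adjusted 6e-05 and 2.57e-05), r without the 2 farthest rats of -0.721, and r within groups of -0.861 (CC-Ex) to -0.730 (Ex). Tnnc2, the direct counterpart of Tnnc1, had a weaker relation to it (r = -0.406, rho = -0.410, permutation p = 0.117 and 0.0771, adjusted 0.140 and 0.0925). Myh2 rose with Tnnc1 (r = 0.844, rho = 0.784, permutation p = 6e-05 and 5e-05, adjusted 0.000114 and 9.47e-05), with r of 0.805 without the 2 farthest rats and of 0.704 to 0.991 within groups. How much slow muscle each piece of tissue held was not measured, and its part in the members' levels was not tested.

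**Figure D5:**
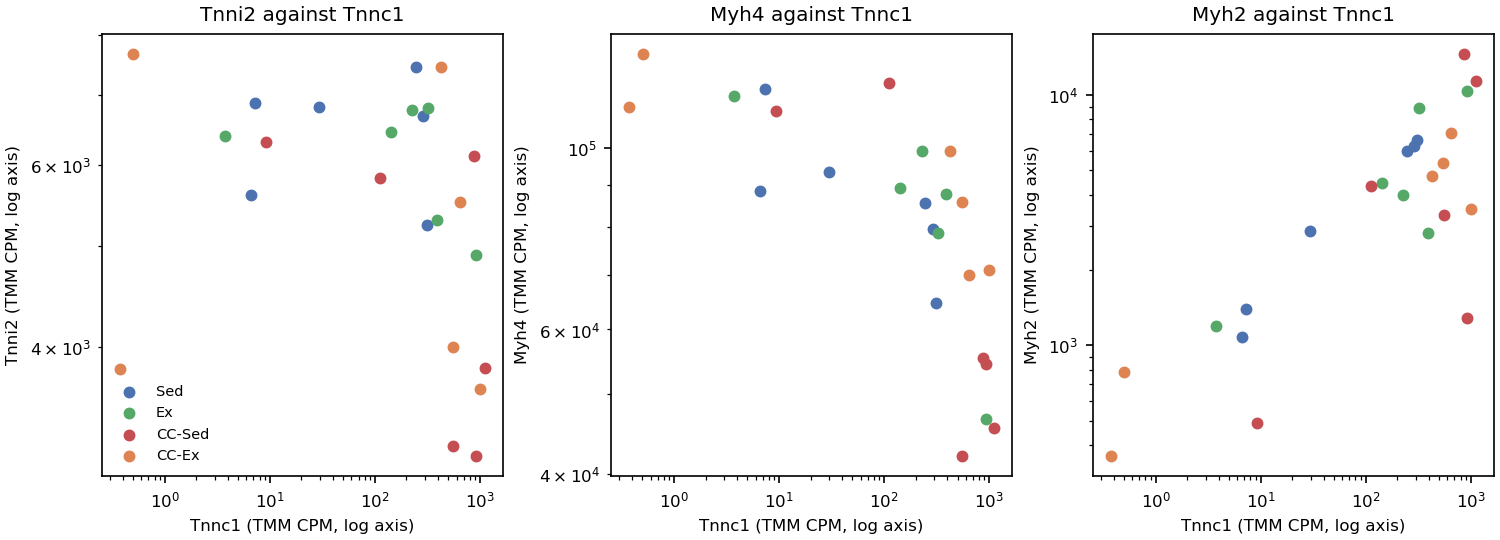
Levels of Tnni2, Myh4 and Myh2 (vertical axes, log scale, CPM) against Tnnc1 (horizontal axis, log scale, CPM), 1 point per rat, coloured by group. Myh4 falls and Myh2 rises with Tnnc1 (r of -0.708 and 0.844 with group means removed), and the points of the 4 groups intermingle.

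For each member, the 3 other genes with the most similar profile over the 24 rats that are no members were found by Spearman's rho with group means removed. They were taken from all named genes of the table and have no test. They were Selenow, Myoz1 and Aldoa for Tnnc2 (rho 0.947, 0.931 and 0.930) and Ldha, Sh3bgr and Pgk1 for Tnni2 (0.941, 0.937 and 0.933). Tnnt3 was nearest to Pygm, Park7 and Glo1 (0.957, 0.953 and 0.926), and Myl1 to Myl11, LOC100362738 and Casq1 (0.967, 0.952 and 0.951). For Myh4 they were Mypn, Ryr1 and Adgrb2 (0.923, 0.916 and 0.910), and for Myh2 they were Tpm2, Nrtn and Slc25a20 (0.937, 0.929 and 0.926). Actn3 was nearest to Pygm, Trdn and Gpd2 (0.935, 0.933 and 0.923) and Tpm1 to Gpd2, Glo1 and Pvalb (0.966, 0.962 and 0.961).

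Other genes of fast fibres were taken from a list of 12, of which 10 were measured. In the sedentary comparison 9 of 10 had lower average levels in CC-Sed, with a median log2 fold change of -0.31. edgeR called 0 of the 10, beside 6.46% of all genes. DESeq2 called Casq1 (-0.99, DESeq2 adjusted p = 0.0366). limma-voom called Casq1 (-1.11, limma-voom adjusted p = 0.0111) and Myl11 (-0.70, limma-voom adjusted p = 0.0416). These settings called 1331 and 2474 of all genes, and the rest of the list was not followed in them. In the trained comparison 5 of the 10 had lower and 5 had higher average levels in CC-Ex than in Ex. The median log2 fold change there was -0.03, and edgeR called 0, beside 0.995% of all genes. Over both activity levels 6 of 10 were lower and 4 higher on average, and 1 of 10 was called, where 27.8% of all genes were. It was Casq1, which stores calcium in the sarcoplasmic reticulum of fast fibres (log2 fold change -0.79, edgeR adjusted p = 0.0199), and it stayed called in 24 of 24 fits that left out 1 rat. Pvalb, the calcium buffer parvalbumin, had a log2 fold change of -1.39 in the sedentary comparison (-2.55 to -0.22, edgeR adjusted p = 0.117). Atp2a1, the calcium pump of fast fibres, had -0.16 (-0.58 to 0.26, edgeR adjusted p = 0.622).

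Sarcomere genes common to all fibres, 16 of 19 measured, gave 0 calls in the sedentary and 0 in the trained comparison, with median log2 fold changes of -0.05 and -0.10. Of all genes, 6.46% and 0.995% were called in these comparisons, respectively. Over both activity levels, with the same 27.8% of all genes called, 2 of these 16 were called, Lmod2 higher (1.07) and Smyd1 lower (-0.55). Of the embryonic and cardiac forms, 5 of 7 were measured, and Myl4 was lower over both activity levels (-1.30, edgeR adjusted p = 0.0394), while Myh3, the embryonic heavy chain, had 0.41 in the sedentary comparison (-1.23 to 2.06).

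Among 29 regulators of fibre type, all measured, 2 were higher and 2 lower in CC-Sed than in Sed, of which 3 are described here, in a comparison that called 6.46% of all genes. Foxo1, a transcription factor of atrophy and fasting, rose from a Sed range of 9.63 to 17.2 CPM to 16.9 to 126.5 CPM in CC-Sed (log2 fold change 2.4, standard error 0.521, edgeR adjusted p = 0.0138), and was called in 12 of 12 fits that left out 1 rat. Ppard, a nuclear receptor of oxidative metabolism, rose by 0.73 on the log2 scale (edgeR adjusted p = 0.0210), a call lost without Sed replicate 2 or 3. Mafa, a large Maf factor known to drive Myh4 and the type IIB program, fell from 30.05 to 50.4 CPM in Sed to 12.7 to 31.9 CPM in CC-Sed (log2 fold change -1.05, edgeR adjusted p = 0.0316), and this call held in 5 of 12 fits that left out 1 rat. It was lost without Sed replicate 2, 3 or 5 or CC-Sed replicate 1, 3, 5 or 6. The related Maf had -0.24 (-0.75 to 0.27). Tbx15 and Sox6, further factors of the fast program, had 0.06 and -0.41 and neither was called.

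In the trained comparison, 1 of the 29 regulators was called, beside 0.995% of all genes. It was Foxo1 (log2 fold change 2.45, edgeR adjusted p = 0.0329). This call held in 4 of 12 fits that left out 1 rat and was lost without any single Ex rat or without CC-Ex replicate 5 or 6, and with upper-quartile scaling, the 12 rats alone or the replicate block. Mafa had -0.42 (-0.99 to 0.16, edgeR adjusted p = 0.357). Over both activity levels 3 regulators were higher and 5 lower, and the calls of Foxo1, Ppard and Mafa held in 24 of 24 fits that each left out 1 rat. With 27.8% of all genes called in that comparison, 8 of 29 is near the rate of all genes.

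Markers of other cells were read beside the members. Of 4 endothelial markers, 3 were measured (Pecam1 was not), with summed levels of 107 to 184 CPM in Sed and 146 to 225 CPM in CC-Sed. Vwf, one of them, rose in both comparisons (log2 fold change 1.41, edgeR adjusted p = 0.00596, and 1.12, edgeR adjusted p = 0.0383). The first call held in 12 of 12 fits that left out 1 rat and the second in 2 of 12, those without CC-Ex replicate 1 or 4. The second was also lost with upper-quartile scaling, the 12 rats alone, the replicate block and the library number as a covariate. Kdr was higher and Cdh5 lower on average in both comparisons (-0.25 and -0.16 for Cdh5), and edgeR called neither. Fibroblast markers (4 of 4) summed to 335 to 2200 CPM in Sed and 412 to 1227 CPM in CC-Sed, and macrophage markers (4 of 4) to 9.43 to 63.5 CPM and 15.8 to 50.5 CPM. Erythroid genes (3 of 3) summed to 49.9 to 130 CPM in Sed and 50.5 to 409 CPM in CC-Sed. edgeR called none of them in either pairwise monocrotaline comparison, beside 6.46% (sedentary) and 0.995% (trained) of all genes. In the trained comparison 3 of 3 had an unadjusted edgeR p under 0.05, beside 22.6% of all genes. The authors, using DESeq2, reported Hbb and Hba-a1 as differentially expressed in both comparisons. Erythroid genes were not followed in the DESeq2 fit here. Smooth muscle (3 of 3), Schwann cell (2 of 3), adipocyte (1 of 3) and satellite cell (1 of 2) markers also gave no edgeR call in either comparison, beside the same shares of all genes. Over both activity levels, 2 of 3 endothelial and 2 of 3 erythroid markers and the satellite cell marker Myf5 were higher, and 2 of 4 fibroblast and 2 of 3 smooth muscle markers and the adipocyte marker Adipoq were lower, in a comparison that called 27.8% of all genes. Genes with mitochondrial symbols (Mt-) held 14.3% to 24.7% of counts in Sed and 13.6% to 25.5% in CC-Sed. The trained groups stood further apart, with medians of 19.5% in Ex (12.1% to 27.3%) and 14.2% in CC-Ex (9.74% to 22.3%). Fibroblast markers summed to 676 to 4011 CPM in Ex and 131 to 1266 CPM in CC-Ex, and erythroid genes to 92.2 to 210.0 CPM and 33.8 to 960.0 CPM. The part of these cells and of the mitochondrial share in the members' levels was not tested.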

How the data were processed

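Poly-A RNA of 24 muscles was sequenced by the authors with a stranded kit. The authors trimmed the reads with Trim Galore, quantified them with Salmon on the Ensembl transcriptome of mRatBN7.2 and brought transcripts to the gene level with tximport. What they deposited are estimated counts in whole numbers for 10851 genes, unscaled for library size and with no value below 10. Here a gene is called measured if it is among them, and library totals and shares of all counts are sums over them. At library totals of 37816239 to 50350554, the members are counted deeply, and counting error is small beside the spread between rats.

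Groups and replicate numbers came from the labels. The tests were run with edgeR 4.0.16 under R 4.3.3 (filterByExpr, which removed no gene, TMM, 4 group means, quasi-likelihood F test, 24 rats). Standard errors are the log2 fold change over the square root of F. Correlations used log2 CPM with a prior count of 2 in Python 3.11.15. The fits were tested on simulated data. Alternatives were DESeq2 1.42.0, limma-voom with quality weights (limma 3.58.1), upper-quartile scaling, scaling without the members and slow genes, no filter, a mean of at least 10 CPM (6319 genes), 12 rats only, a block for the replicate number, the number of the library as covariate, other denominators of the share, and each rat left out. CPM of the plain library size was added after seeing the data. The members and lists were chosen with earlier results of these data known. Every member was named, as were the 3 genes nearest to it, its slow partner, and list genes called in a pairwise monocrotaline comparison, except for an item that is not reported here. Pvalb, Atp2a1, Myh3, Maf, Tbx15, Sox6, Casq1, Lmod2, Smyd1 and Myl4 were named after their values were seen. Promoter sequences are from RefSeq (GRCr8).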

Additional observations from a re-analysis of the deposited data

How the results depend on the processing

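Of 1440 member values under other settings, 1375 kept direction and side of the threshold, 51 reversed and 14 became calls. For the mean monocrotaline effect, DESeq2, upper-quartile scaling and the 10 CPM filter each called 1 member (Myl1), limma-voom 4, and fits without 1 rat 0 to 3, beside 3478, 2929, 2170, 3952 and 2207 to 3832 genes in all. In every other comparison 0 members were called in every setting.

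These values reversed in sign. With the library number as a covariate, CC-Ex against Ex gave -0.0786 for Myh4 and -0.1416 for Actn3, and Ex against Sed gave -0.0247 for Tpm1. Library numbers ran from 1 to 14 in CC-Ex and from 7 to 23 in Ex. They ran from 4 to 21 in CC-Sed and from 9 to 24 in Sed. Within either pair, and so in the mean monocrotaline effect, library order and group can be told apart only in part. limma-voom gave -0.0329 for Myh4 (CC-Ex against Ex), -0.0139 for Tpm1 (Ex against Sed), and for Myh2 0.1791 (CC-Ex against CC-Sed, from -0.70), -0.0059 (mean monocrotaline effect) and 0.3102 (mean training effect). Tpm1 in Ex against Sed was -0.0013 with DESeq2 and -0.0065 with scaling that left out the members and slow genes. The mean monocrotaline effect on Myh2 was -0.0437 with upper-quartile scaling and -0.0166 with the 10 CPM filter. The cause was not tested.

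With 1 rat left out, values for CC-Ex against Ex ran from -0.1514 to 0.0546 (Tnnt3) and -0.1053 to 0.2694 (Actn3). For Ex against Sed they ran from -0.1039 to 0.0168 (Tnnc2), -0.1049 to 0.0411 (Tnnt3), -0.0596 to 0.0813 (Myl1), -0.1365 to 0.0923 (Myh4), -0.2003 to 0.1411 (Actn3) and -0.1025 to 0.1258 (Tpm1). The mean monocrotaline effect on Myh2 ran from -0.245 to 0.1606, and the mean training effect from -0.0167 to 0.0984 (Tnni2) and -0.308 to 0.0976 (Myh2).

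Over all genes, CC-Sed against Sed gave 701 calls, 1331 with DESeq2, 2474 with limma-voom, and 173 (without CC-Sed replicate 6) to 1726 (without CC-Sed replicate 4) with 1 rat left out. CC-Ex against Ex gave 108, 685 with DESeq2, 1043 with limma-voom, 23 with upper-quartile scaling, 42 with the library number, 1 with the 12 rats alone, and 2 to 847 (without CC-Ex replicate 4) with 1 rat left out.

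Replicate numbers did not appear to pair rats (mean correlation of deviations 0.095 for Sed and CC-Sed, with 4 of 6 pairs over 0.1, and -0.172 for Ex and CC-Ex). These correlations had no test and cannot exclude a pairing. With the replicate block 0 members were called in any comparison, and the calls over all genes were 553 in the sedentary and 1 in the trained comparison. With 6 rats a group, spread between rats limits the precision, since the intervals for Myh2 and Actn3 span more than 1 on the log2 scale.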
